A study of Homo sapiens with 12 samples.

Results

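The difference in transcript levels between FBXO11 knockout and wild-type cells, averaged over 2 Burkitt lymphoma cell lines, Raji and Daudi, was measured by RNA sequencing. The knockout minus wild-type difference was taken in each line and the 2 differences were averaged with equal weight, over the 12027 genes tested of 19919 in the table and over all 12 libraries. Weight was then placed on the genes in which every knockout library lay on the same side of every wild-type library of its line, in both lines. Of the genes tested, 211 passed the test of the mean and also met this condition, 83 of them risen and 128 fallen. They are called shared genes here. Tested 1 line at a time, 19 of the 211 passed in both lines, 85 in Raji only, 39 in Daudi only and 68 in neither. Shared therefore means a call in the mean without overlap, not a call in each line.

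Raji and Daudi are established B cell lines grown from Burkitt lymphoma, and all 4 groups were sequenced as total RNA from cultured cells. The wild-type groups held 4 Raji and 2 Daudi libraries, and the FBXO11 knockout groups likewise held 4 and 2. The knockout cells had received Cas9 and a guide against exon 4 of FBXO11 from the lentiviral vector LentiCRISPR v2, were selected with puromycin and were grown up from single cells, and the clones were chosen by western blot and by sequencing of the target region as lacking FBXO11 on both alleles. Whether the wild-type cells had been transduced, selected or cloned, which guide or clone stands behind each knockout library, and whether replicates were separate cultures are not given in the sources used here. Differences between clones and the effect of the knockout therefore cannot be told apart, and p-values measure only how these libraries vary, which may be technical variation.

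FBXO11 is the subunit of an SCF (SKP1, cullin, F-box) ubiquitin ligase that binds the protein to be degraded. One of its reported substrates is BCL6, the transcriptional repressor that germinal centre B cells need, which holds down genes of activation, of cell cycle arrest and of the response to damaged DNA. Burkitt lymphoma arises from germinal centre B cells with MYC translocated, and FBXO11 is known to be mutated or lost in a share of B cell lymphomas.

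The 2 guides are shown with the bases that follow each target in the transcript, the PAM that Cas9 needs in capitals, because they mark the exon targeted in all 6 knockout libraries.
Guide 1: cctgctgaacagtatcttcAGG
Guide 2: cttctcttacttgctggaacAGG
Guide 1 matched chr2:47838980-47838998 and guide 2 matched chr2:47838926-47838945 (GRCh38, transcript strand, which is the minus strand). Both lie in exon 4 of transcript FBXO11-201, a coding exon from 47838859 to 47839003.

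Total counts ran from 11.2M to 23.6M per library. Raji wild-type replicates 3 and 4 were nearly alike, the chi-square between their counts being 2.18 for each degree of freedom, against 21.9 to 171 for every other pair of replicates. They were kept as separate libraries, and counts were also made with the pair summed. All 9 defining B cell markers were present in every library, at a summed level of 2696 to 4717 CPM (counts per 1M). Of 8 T and NK cell markers CD2 and CD8A were at 0 throughout, 5 stayed under 1 CPM everywhere with these included, and CD3E, LCK and NKG7 passed 1 CPM, the highest value being 137 CPM. Of 7 myeloid markers S100A8 was at 0 throughout, and LYZ and CSF1R passed 1 CPM, reaching 28.1 CPM. COL1A1 alone passed 1 CPM among 6 epithelial and fibroblast markers, reaching 32 CPM. Daudi wild-type replicate 1 stood apart in its interferon response genes, with a median of 296 CPM over the 48 tested against 81.3 CPM in replicate 2. Levels of single genes are given below as CPM after TMM scaling, which corrects for library composition, and log2 changes with their standard error (SE) and a p adjusted over all genes tested. Where 2 Daudi values are set against 2 others, wild type comes first.

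The targeted gene did not pass the test in the mean. FBXO11 mRNA stood at 118, 68.6, 88 and 83 CPM in wild-type Raji libraries and at 72.1, 70.6, 34.1 and 47.9 CPM in Raji knockout. In Daudi, 81.8 and 51.7 CPM in wild type stood against 88.4 and 92.8 CPM in knockout. The groups overlapped in Raji and were apart in Daudi with knockout higher, and the mean log2 change was -0.12 (SE 0.22, adjusted p = 0.87, exact permutation p within lines 0.714). A whole-gene count cannot show an edit in 1 exon, and 26.9% of its exonic bases are shared with genes on the other strand, which the library kit cannot separate, so these values check nothing about the labels.

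BCL6 mRNA fell in Raji knockout and lay higher in Daudi knockout, where the change did not pass the test. It was 302, 426, 454 and 442 CPM in wild-type Raji against 191, 295, 240 and 238 CPM in knockout. Daudi gave 157 and 195 CPM against 278 and 281 CPM. No knockout library overlapped a wild-type library in either line, lower in Raji and higher in Daudi. The log2 changes were -0.75 in Raji (adjusted p = 0.0352) and 0.67 in Daudi (adjusted p = 0.189), and the difference between them passed its own test (adjusted p = 0.0483). The mean log2 change was -0.04 (SE 0.14, adjusted p = 0.953, exact permutation p within lines 0.91, where the smallest possible is 0.00476).

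In the mean of both lines 144 genes rose (1.2% of those tested) and 264 fell (2.2%), 408 in all (3.39%), by edgeR's quasi-likelihood test at an adjusted p under 0.05. Of these calls, 376 had the same sign in both lines and 211 (51.7%) had no overlap in either line. The shared risen genes were 0.69% and the shared fallen genes 1.06% of those tested. Fallen genes moved further, with a median log2 change of -1.55 in the shared fallen set against 0.65 in the shared risen set and 0.00 over all genes tested. At least a 2-fold change in each line was seen in 63 of the shared fallen and 9 of the shared risen genes. The higher group reached 2 CPM in each line in 97 of 128 shared fallen and 79 of 83 shared risen genes. Fold changes of the others rest on low levels in at least 1 line. In the remaining 197 calls the libraries were apart in the direction of the mean in Daudi only (167 genes) or in Raji only (30 genes), and in 4 of them the other line was apart the opposite way.

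Without regard to the test, libraries were apart in both lines in the same direction for 469 genes. Knockout was higher in 225 of them (1.87%) and lower in 244 (2.03%). In opposite directions 219 genes (1.82%) were apart in both lines, 109 with knockout higher in Raji and 110 with knockout higher in Daudi. Tested 1 line at a time, 313 genes changed in Raji (2.6%) and 315 in Daudi (2.62%). In both lines and in the same direction 19 genes changed (0.158%), which is 6.07% of the Raji and 6.03% of the Daudi calls, and 2 genes changed in both but oppositely, CPEB4 and SHROOM3. The line effects themselves differed for 93 genes (0.773%). Across genes, which are not independent replicates, the Raji and Daudi log2 changes had a Spearman correlation of 0.084.

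**Figure D1:**
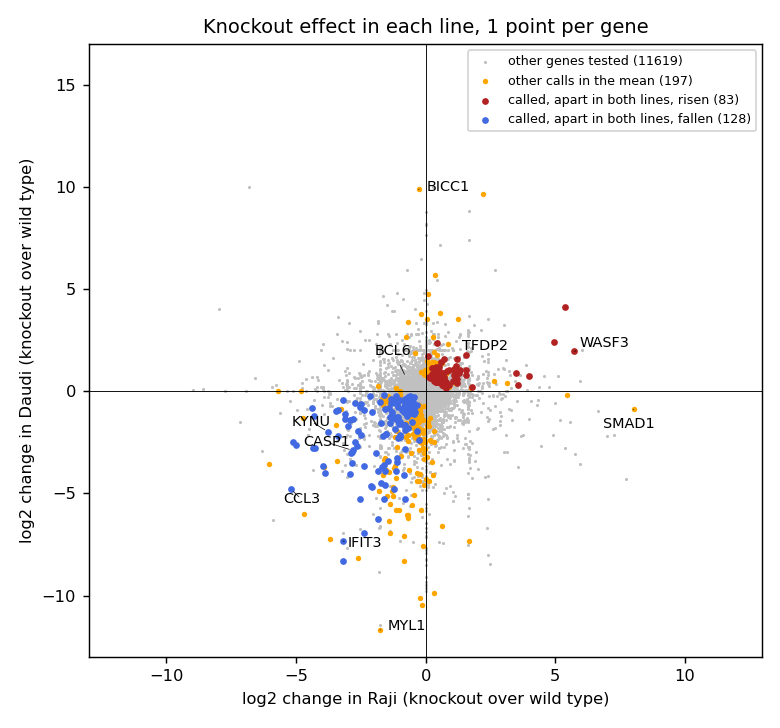
Log2 change of each gene tested in Raji (x axis) and in Daudi (y axis), knockout over wild type, with 1 point per gene. Red and blue points are the 83 shared risen and 128 shared fallen genes, orange points the 197 remaining calls and grey points the other genes, with a Spearman correlation of 0.084 over all. BICC1 and MYL1 have all-zero groups in Daudi, so their Daudi positions depend on the prior count.

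The 19 genes called in each line alone were chosen by that result and are given as a description. WASF3, NLRP2, LTBP1, TFDP2, CHST12, MME and TRIM59 rose in both. IL21R, EBI3, KYNU, CDKN1A, MYRF, CASP1, RGS3, CAST, CFAP47, LGALS9, HEG1 and CCL3 fell in both. NLRP2, of the NLR family of innate immune proteins, had log2 changes of 5.37 in Raji and 4.12 in Daudi from at most 1.09 CPM in any wild-type library. IL21R, the receptor of the T helper cytokine interleukin 21, had log2 changes of -0.71 and -1.21. HEG1, a membrane receptor, had -0.84 and -1.65. All but CAST stayed called in the mean in each of the 12 fits that left out 1 library. The number called in each line alone was 2 to 54 over these fits, 2 without Daudi knockout replicate 2, 8 without Daudi wild-type replicate 1, 54 without Daudi wild-type replicate 2, and 9 with the near-alike Raji wild-type pair summed.

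WASF3, which drives branched actin assembly, was the risen gene with the smallest adjusted p. It stood at 0.955, 0.825, 0.819 and 0.61 CPM in wild-type Raji libraries and at 58.6, 24.8, 35.6 and 53.8 CPM in Raji knockout. The Daudi levels were 6.47 and 7.61 CPM against 32.5 and 22.1 CPM. Every knockout library was far above its wild type. The mean log2 change was 3.85 (SE 0.26, adjusted p = 3.43e-05). The rise was larger in Raji (5.75) than in Daudi (1.96), a difference that passed its own test (3.79, adjusted p = 0.00559). Of the exonic bases of WASF3, 38.3% lie opposite another gene.

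TFDP2 encodes a partner with which E2F factors bind DNA. Its level was 143, 114, 110 and 118 CPM in wild-type Raji and 274, 290, 360 and 196 CPM in Raji knockout. Daudi wild type held 134 and 146 CPM and knockout 392 and 453 CPM. The lowest knockout library stood above the highest wild-type library across both lines, and the mean log2 change was 1.40 (SE 0.15, adjusted p = 0.00148).

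LTBP1, which holds TGF-beta in its latent form in the matrix, was 64.9, 49.6, 46.9 and 45.5 CPM in wild-type Raji and 124, 106, 106 and 109 CPM in knockout. The Daudi levels were 43.6 and 47.8 CPM against 100.0 and 93 CPM. The groups were tight and the rise was nearly equal in the lines, with log2 changes of 1.11 in Raji and 1.08 in Daudi (mean 1.09, SE 0.12, adjusted p = 0.00118). MME (CD10), a surface peptidase used as a marker of germinal centre B cells, was 147, 99.4, 136 and 132 CPM in wild-type Raji and 290, 347, 269 and 222 CPM in knockout. Daudi wild type held 208 and 201 CPM and knockout 409 and 380 CPM. Its mean log2 change was 1.04 (SE 0.14, adjusted p = 0.00269).

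KLHL9, an adaptor that brings substrates to cullin 3 ubiquitin ligases, was 2.75, 2.38, 4.7 and 5.93 CPM in wild-type Raji and 11.3, 12.3, 14.1 and 9.24 CPM in knockout. In Daudi, 3.15 and 1.53 CPM in wild type stood against 8.79 and 7.31 CPM in knockout, so that no groups overlapped (mean log2 change 1.67, SE 0.28, adjusted p = 0.00872). RRM2B, a subunit of ribonucleotide reductase induced by p53, was 134, 131, 136 and 143 CPM in wild-type Raji, 259, 376, 230 and 164 CPM in Raji knockout, 49.9 and 66.5 CPM in Daudi wild type and 125 and 115 CPM in Daudi knockout. All 6 knockout libraries were above their wild type, with a mean log2 change of 0.98 (SE 0.18, adjusted p = 0.0146).

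Of the 15 risen genes with the largest change in the line that changed less, the remaining 9 were IQCD, FCGBP, ARL15, a small GTPase, ASAP3, which switches off ARF GTPases, ABHD3, a phospholipase, BICDL1, a dynein adaptor, RIMKLB, LCK, a SRC family kinase best known in T cells, and WNK2, a kinase. Their mean log2 changes ran from 0.90 for BICDL1 to 2.36 for WNK2. WNK2 rose from 0.222 to 1.1 CPM in wild-type Raji to 6.22 to 12 CPM in knockout and was already at 26.5 and 57.9 CPM in Daudi wild type, against 61.9 and 77.4 CPM in knockout. In Daudi alone its change did not pass the test (adjusted p = 0.545). Its line effects differed (3.27, adjusted p = 0.046). The same held for THUMPD2, USP38 and ABR among the shared risen genes, named here after their values were seen, and for no shared fallen gene.

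Cytokine-related genes were among those fallen. CCL3, a chemokine that activated B cells release, was 1.73, 2.38, 5.24 and 5.88 CPM in wild-type Raji and 0.0892, 0.0677, 0.184 and 0.0534 CPM in knockout. Daudi gave 8.09 and 3.11 CPM against 0.237 and 0.157 CPM. All knockout libraries were near the level of a few reads, and the mean log2 change was -5.00 (SE 0.52, adjusted p = 0.00118). CCL3 has near-identical gene copies, and 74.6% of its exonic bases lie opposite genes on the other strand, so its reads are uncertain. EBI3, a subunit of interleukins 27 and 35, was 26.1, 23, 29.6 and 29.1 CPM in wild-type Raji and 5.75, 3.11, 7.98 and 11.4 CPM in knockout. The Daudi levels were 7.13 and 4.1 CPM against 1.14 and 0.236 CPM (mean log2 change -2.47, SE 0.39, adjusted p = 0.00637).

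IL15RA, the receptor chain that presents interleukin 15, was 15.4, 9.54, 19.9 and 15.6 CPM in wild-type Raji and 2.36, 1.62, 2.95 and 3.85 CPM in knockout. Daudi wild type held 6.22 and 2.12 CPM and knockout 1.02 and 0.864 CPM. It fell to a like extent in the lines, with a mean log2 change of -2.31 (SE 0.34, adjusted p = 0.00414). CASP1, the caspase of the inflammasome, was 2.21, 3.3, 2.29 and 3.77 CPM in wild-type Raji and 0.357, 0.271, 0.798 and 0.214 CPM in knockout. In Daudi, 48.9 and 29.3 CPM in wild type stood against 7.57 and 2.91 CPM in knockout. Although wild-type Daudi held far more CASP1 mRNA than wild-type Raji, the log2 changes were -2.81 and -2.90 (mean -2.86, SE 0.36, adjusted p = 0.00224).

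KYNU, the tryptophan-breakdown enzyme kynureninase, was 2.15, 2.75, 1.86 and 2.77 CPM in wild-type Raji and 0.134, 0.135, 0.307 and 0.107 CPM in knockout. Daudi gave 6.84 and 7.46 CPM against 1.58 and 2.04 CPM (mean log2 change -2.87, SE 0.30, adjusted p = 0.00118). CDKN1A (p21), an inhibitor of cell cycle kinases that BCL6 is reported to repress, was 63.5, 58.2, 49.6 and 47.4 CPM in wild-type Raji and 24.4, 21.6, 32.8 and 18.5 CPM in knockout. The Daudi levels were 31.9 and 40.5 CPM against 12.3 and 7.94 CPM. No groups overlapped for either gene, and CDKN1A fell by 1.50 on the log2 scale in the mean (SE 0.18, adjusted p = 0.00202).

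LGALS9 (galectin-9), a secreted glycan-binding protein, was 4.24, 2.66, 2.73 and 3.33 CPM in wild-type Raji and 0.892, 1.01, 0.614 and 1.07 CPM in knockout. Daudi wild type held 12.2 and 9.83 CPM and knockout 0.473 and 0.982 CPM (mean log2 change -2.88, SE 0.28, adjusted p = 0.00103). LGALS9 has close gene copies between which reads may have been split. The remaining 9 of the 15 fallen genes named by the rule were IFIT3, CXCL10, HELZ2 and TDRD7, known as interferon-induced, CD69, an early activation antigen, CD68, a lysosomal glycoprotein best known in macrophages, TMCC3, FGD4, an activator of CDC42, and EHD4, an endocytic ATPase. Their mean log2 changes ran from -5.27 for IFIT3 to -1.94 for EHD4.

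**Figure D2:**
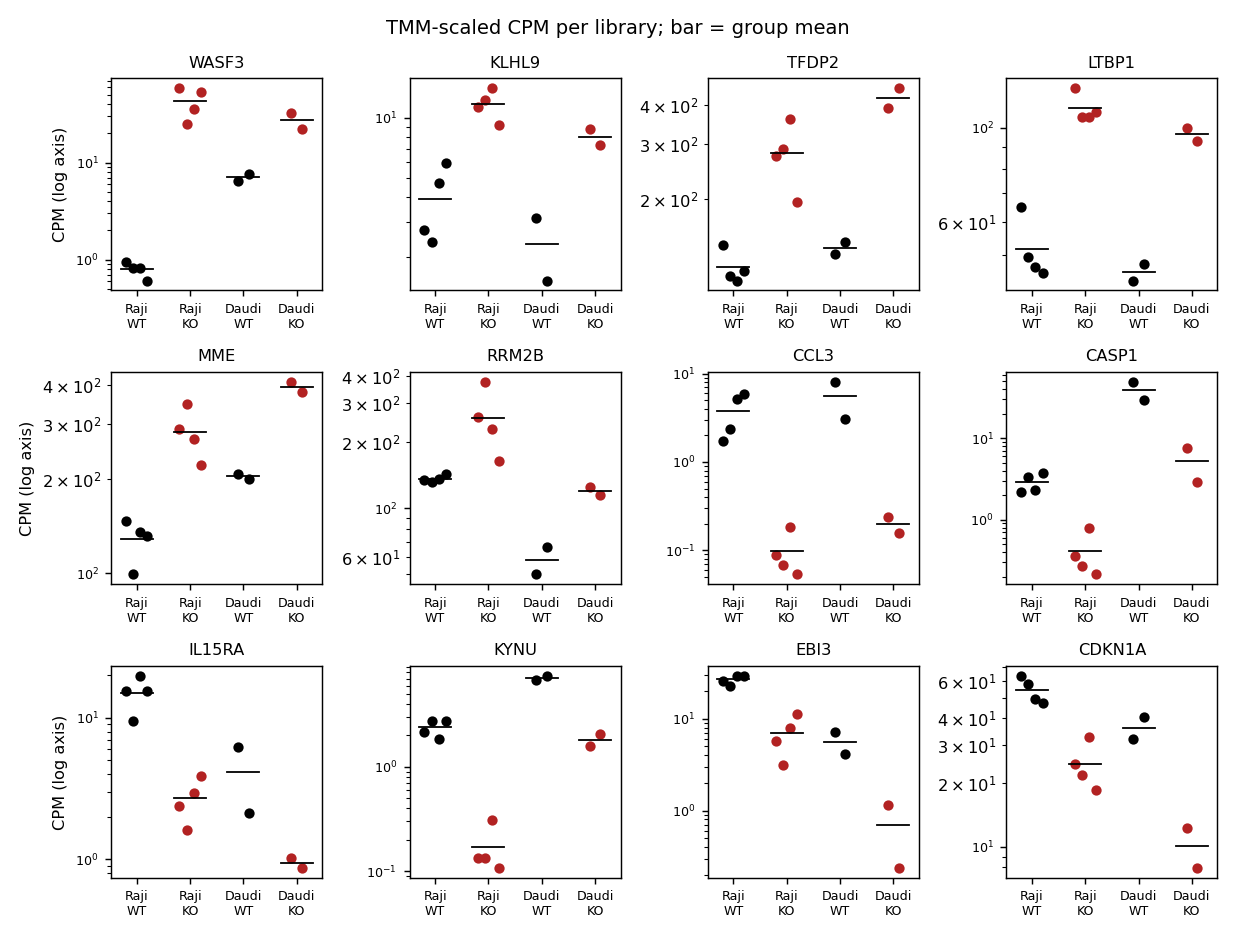
TMM-scaled CPM (log y axis) of 6 shared risen and 6 shared fallen genes, with 1 point per library, wild type in black, knockout in red and the group mean as a bar. Knockout and wild-type points do not overlap within a line in any panel, which is how the genes were selected, while levels of CASP1 and WASF3 in wild type differ between the lines.

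**Figure D3:**
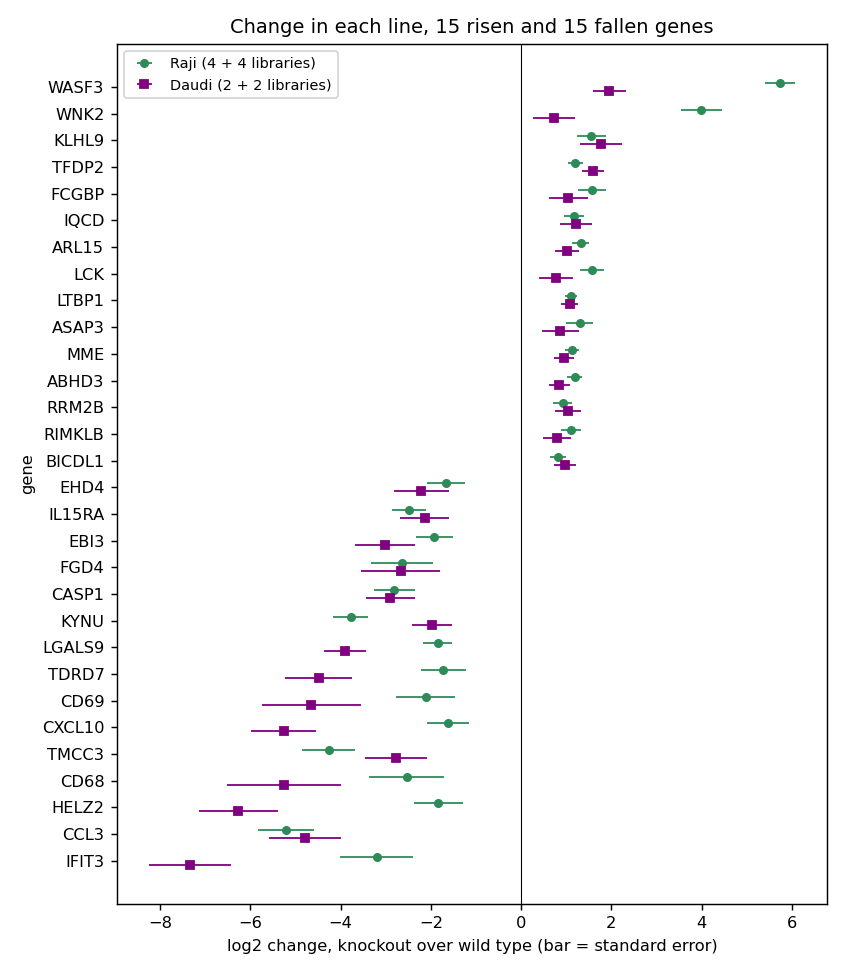
Log2 change in Raji (green circles, 4 and 4 libraries) and in Daudi (purple squares, 2 and 2 libraries) for the 15 risen and 15 fallen genes named by the rule, with standard errors as bars. LTBP1, CASP1 and FGD4 lie at nearly the same value in both lines, WASF3 and WNK2 rose more in Raji, and IFIT3 and HELZ2 lie lower in Daudi, where the test of the difference did not pass (adjusted p = 0.19 and 0.0551).

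Leaving out 1 library at a time, 54 of the 211 shared genes (23 risen, 31 fallen) stayed called in all 12 fits, and so did 20 of the 30 genes named by the rule. The exceptions were FCGBP, RRM2B, ASAP3, BICDL1, RIMKLB and LCK among the risen and FGD4, CD68, CD69 and EHD4 among the fallen. Without Daudi wild-type replicate 1, 38 shared genes rose and 58 fell, of which 32 and 54 were in the sets above. Without Daudi knockout replicate 2 the numbers were 26 and 35, and without Daudi wild-type replicate 2 they were 112 and 211. With the near-alike Raji wild-type pair summed they were 36 and 85.

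The gene lists that follow are to be set beside all genes tested, of which 1.2% rose, 2.2% fell, 0.69% were shared risen and 1.06% shared fallen. The lists and their members were chosen with earlier results of these data known. A list count above these shares may come from that choice and is a description, not a test. Of all genes tested 49.6% had a negative mean log2 change and 24.3% a negative change in both lines.

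Reported targets of BCL6 repression had 8 fallen members. Of 31 tested, 8 fell, 0 rose and 23 did not pass, 7 of the fallen being shared genes, and the list's median log2 change was -0.55 against 0.00 over all genes tested. The 7 were ZBTB32, a transcriptional regulator of B cell differentiation, CD69, PTPN6, CD274, CDKN1A, CXCL10 and CCL3. CD274 (PD-L1), an inhibitory ligand of T cells, had a mean log2 change of -2.71 (adjusted p = 0.0287). Without Daudi wild-type replicate 1, 5 of 32 fell. Of 7 tested genes whose proteins are reported substrates of FBXO11, BCL6 among them, 0 passed at the mRNA level.

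B cell receptor signalling genes fell in 6 of 34 cases, all 6 shared, with a list median of -0.29 and 0 risen. They were CD22, PTPN6, CD72, FCRL2, FCRL1 and PIK3AP1. CD22 and CD72 are inhibitory co-receptors, PTPN6 is the phosphatase SHP-1 they recruit, FCRL1 and FCRL2 are Fc receptor-like proteins of B cells and PIK3AP1 is an adaptor that links the receptor to PI3 kinase. PTPN6 was 87, 159, 196 and 191 CPM in wild-type Raji and 17.3, 27.9, 34.8 and 28.7 CPM in knockout. In Daudi, 27.4 and 20.5 CPM in wild type stood against 14.1 and 14.3 CPM in knockout, a smaller step in the same direction (mean log2 change -1.65, SE 0.23, adjusted p = 0.00386). FCRL2 was 46.3, 27.7, 26.7 and 24.4 CPM in wild-type Raji and 14.7, 8.26, 14.9 and 7.8 CPM in knockout, and 34.1 and 32.3 CPM against 5.13 and 1.18 CPM in Daudi. In the tests of single lines PTPN6 did not pass in Daudi (adjusted p = 0.393), nor FCRL2 in Raji (adjusted p = 0.071). PTPN6 and FCRL2 stayed called in all 12 fits without 1 library. The list count was 2 without Daudi wild-type replicate 1, 2 without Daudi knockout replicate 2 and 3 with the Raji pair summed.

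Light zone and activation genes, which mark germinal centre B cells that have met antigen and T cell help, were negative in 24 of 25 cases and negative in both lines in 18. The list median was -0.79, with 3 fallen, all shared, and 0 risen. The 3 were EBI3, CD69 and SEMA7A, a membrane-bound semaphorin which stood at 0.332 CPM or lower in Daudi throughout. In the dark zone and germinal centre list MME rose and LMO2, a transcription factor of that stage, fell (mean log2 change -2.60, SE 0.43, adjusted p = 0.00766), and 20 of 22 did not pass. The light zone count was 1 without Daudi wild-type replicate 1 or Daudi knockout replicate 2.

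Interferon response genes were the list with the most calls, yet few were shared. Of 48 tested, 28 fell and 0 rose, and 21 of the 28 overlapped in Raji while 0 did in Daudi. Under 1 CPM in every Raji library were 20 of the 48, which passed the filter through Daudi, so their Raji values lie near the floor. Of the 28 members that reached 1 CPM in Raji 20 fell, 15 of them overlapping in Raji, and their median log2 change in Raji was -0.61. The median level over the list was 1.9 CPM in wild-type Raji and 0.744 CPM in knockout, against 187 and 3.27 CPM in Daudi. The list median log2 change was -2.53 in the mean, -0.70 in Raji and -4.71 in Daudi, and -2.28 in the mean with genes that had an all-zero group set at the bound that 3 counts allow. The 7 shared members were IFIT3, OASL, PARP9, GBP4, DTX3L, CXCL10 and PLSCR1. OASL and GBP4 were among the members under 1 CPM in every Raji library, at 0.765 and 0.665 CPM or lower. Their lack of overlap in Raji therefore rests on few reads. Without Daudi wild-type replicate 1, the library with the highest levels, 17 of 47 fell, and 7 of them were apart in both lines. IFIT3, an antiviral protein, was 3.7, 1.56, 2.4 and 2.61 CPM in wild-type Raji and 0.0446, 0, 0.552 and 0.534 CPM in knockout. Daudi gave 1105 and 289 CPM against 6.86 and 1.77 CPM. CXCL10, an interferon-induced chemokine, was 3.7, 3.12, 3.71 and 4.16 CPM in wild-type Raji and 1.2, 0.203, 2.33 and 1.01 CPM in knockout, and 49.3 and 22.3 CPM against 0.946 and 0.904 CPM in Daudi. Both genes were apart in both lines from very different starting levels. In Raji alone neither passed the test (adjusted p = 0.0626 for IFIT3 and 0.101 for CXCL10), nor did the other shared interferon genes. Class I antigen presentation genes, which interferon also raises, fell in 2 of 19 cases (TAP1 and HLA-F), both overlapping in Raji, so that 0 were shared.

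Cholesterol synthesis genes were negative in both lines in 20 of 25 cases, with 5 fallen, 3 of them shared, 0 risen and a list median of -0.32. HMGCS1, an enzyme of the early steps, was 584, 396, 472 and 493 CPM in wild-type Raji and 258, 321, 330 and 240 CPM in knockout. The Daudi levels were 241 and 154 CPM against 82.8 and 105 CPM (mean log2 change -0.92, SE 0.16, adjusted p = 0.00974). EBP and DHCR7, enzymes of the later steps, were the other shared members. ACAT2 and MVD fell in the mean with overlap in 1 line. The list of migration and adhesion receptors also held VIM, which is not a receptor. In it 4 of 26 fell, all shared, namely VIM, ITGA4, GPR18 and S1PR4, with a list median of -0.46. VIM, an intermediate filament protein, stood at 0.995 CPM or lower in every Daudi library. Without Daudi wild-type replicate 1 the counts were 2 of 25 and 0 of 27.

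Of 24 tested p53 targets, RRM2B, GADD45A and MDM2 rose and CDKN1A fell, all 4 shared, and 20 did not pass, with a list median of 0.01. GADD45A, a stress-induced growth arrest gene, had a mean log2 change of 0.80 (SE 0.17, adjusted p = 0.0272). MDM2, the ligase that degrades p53, had one of 0.45 (adjusted p = 0.0361). None of the 3 risen targets stayed called without Daudi wild-type replicate 1. Among NF-kB pathway genes REL, an NF-kB subunit, rose (0.61, SE 0.11, adjusted p = 0.0107) while CCL3, CCL4 and LTA fell, and 22 of 26 did not pass. Of the apoptosis genes BCL2L11 (BIM), a killer protein of the BCL2 family, rose by 0.74 (SE 0.13, adjusted p = 0.012) and APAF1, the core of the apoptosome, by 0.62 (SE 0.13, adjusted p = 0.0287), and CASP10 fell with overlap in Raji. BCL2L11 was 284, 204, 202 and 191 CPM in wild-type Raji against 297, 350, 298 and 309 CPM in knockout, and 43 and 49.5 CPM against 78 and 104 CPM in Daudi, so the groups were apart, narrowly in Raji.

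Among BCL6 and its corepressors HDAC9 fell and HDAC7, another class IIa deacetylase, rose, and 18 of 20 did not pass. HDAC9 was 9.07, 9.44, 16.3 and 17 CPM in wild-type Raji and 1.92, 1.08, 1.47 and 0.427 CPM in knockout. Daudi wild type held 14.1 and 14.4 CPM and knockout 6.47 and 8.8 CPM (mean log2 change -2.15, SE 0.32, adjusted p = 0.0049). HDAC7 was 201, 167, 145 and 137 CPM in wild-type Raji and 353, 339, 268 and 246 CPM in knockout, and 208 and 166 CPM against 218 and 249 CPM in Daudi. Neither gene passed the test in Daudi alone (adjusted p = 0.459 for HDAC9 and 0.605 for HDAC7). HDAC9 stayed called in all 12 fits without 1 library and HDAC7 in 2. The list of D cyclins and cell cycle kinase inhibitors also held TFDP2, which is neither. In it TFDP2 and CDKN2C rose and CDKN1A fell, with CDKN2C overlapping in Raji. With single libraries left out, CDKN2C was no longer called in 10 of 12 fits.

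By the same test 0 members passed in the lists of plasma cell genes, MHC class II, SCF subunits, MYC targets, replication, mitosis, glycolysis, serine metabolism, the unfolded protein response and histones, each with a list median between -0.30 and 0.08. Over all genes 2034 had an unadjusted p under 0.05. Glycolysis genes were negative in both lines in 18 of 25 cases, TPI1 having the smallest adjusted p (0.0969, mean log2 change -0.49).

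Of 5 tested T and NK markers 1 was called (LCK, risen), or 20%. Of 6 tested myeloid markers 2 were called (CSF1R and CD68, fallen), or 33.3%. Over all genes tested the share was 3.39%, and 0 of 3 tested epithelial and fibroblast markers were called. LCK rose from 32 to 41.8 CPM in wild-type Raji to 65.7 to 140 CPM in knockout, and from 73.8 and 31.3 to 86.3 and 93.4 CPM in Daudi. It made up most of the summed T and NK markers, which were 33.8 to 40.1 CPM in wild-type Raji and 68.6 to 139 CPM in knockout, 36.2 to 82.2 CPM in Daudi wild type and 97.2 to 109 CPM in knockout, with CD2 and CD8A at 0. Of the tested myeloid markers 3 had a positive and 3 a negative log2 change. LYZ (lysozyme) had a mean log2 change of 0.91 that did not pass the test, with 2.9 and 4.35 CPM against 5.01 and 4.2 CPM in Daudi. CSF1R was 1.01, 1.1, 1.69 and 1.22 CPM in wild-type Raji, 0.0892, 0.135, 0.307 and 0.0534 CPM in knockout, and 25.6 and 23.6 CPM against 6.39 and 12.7 CPM in Daudi. Of 15 B cell markers 13 did not pass, 5 of the 15 were positive and the list median was -0.03. CD22 and MS4A1 (CD20) fell, by 0.68 and 0.66 on the log2 scale, with MS4A1 overlapping in Raji. CD68 stood at 27.8 CPM in Daudi wild-type replicate 1 and at 1.28 CPM in replicate 2, and none of CD68, CD22 and MS4A1 stayed called without replicate 1. With single libraries left out, MS4A1 was no longer called in 10 of 12 fits and CD22 in 6. The part of these markers in the other results was not tested.

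**Figure D4:**
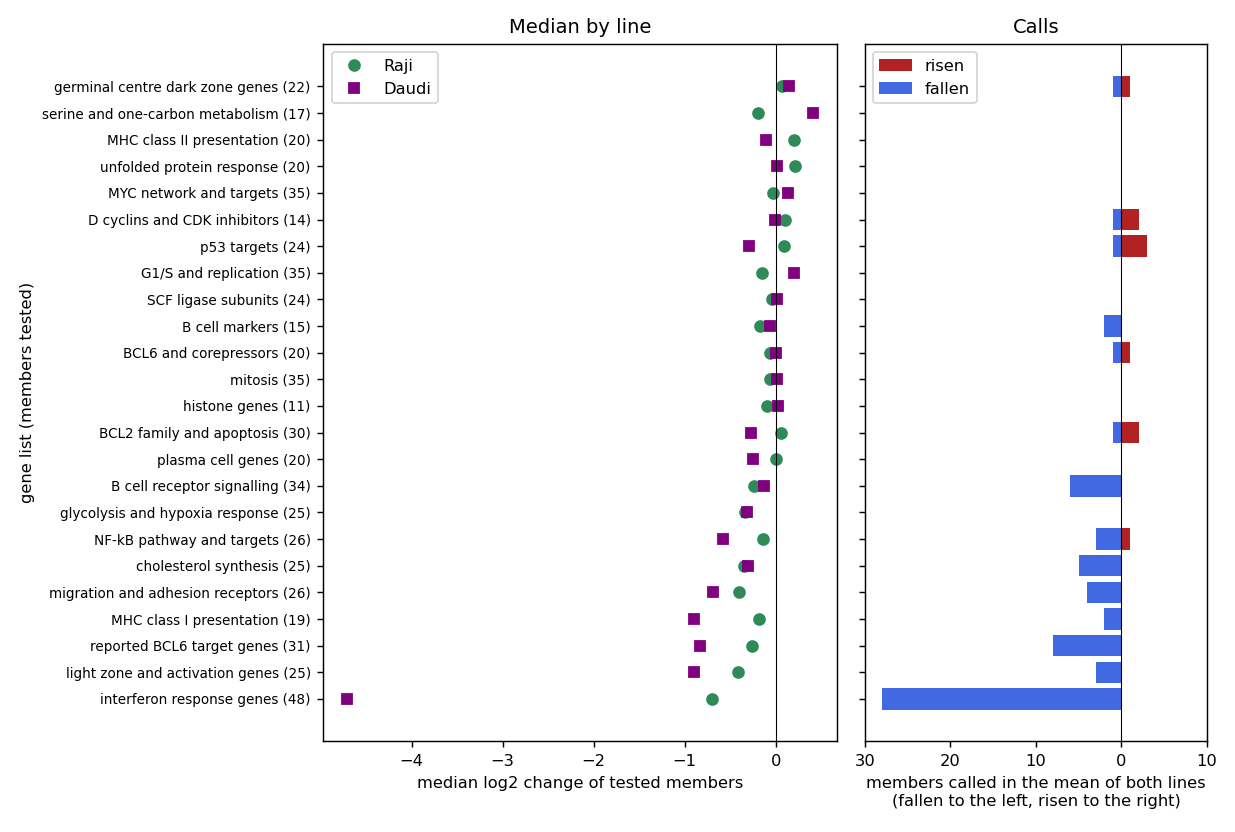
Left, median log2 change (x axis) over the tested members of each gene list with at least 10 tested, in Raji (green circles) and Daudi (purple squares), with the number tested in brackets. Right, the number of members fallen (blue, left of 0) and risen (red, right of 0) in the mean of both lines. Interferon response genes have 28 fallen members and medians of -0.70 and -4.71.

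Promoters of the shared genes were read from RefSeq (GRCh38.p14, 250 bases before to 50 after each start), which matched 103 of the 128 fallen and 72 of the 83 risen genes. The core of the interferon-stimulated response element, 2 copies of GAAA with any 2 bases between them, was searched on both strands. It stood in 15 of 103 fallen promoters (14.6%), in 1 of 72 risen (1.39%), in 3.16% of the 9294 matched promoters of tested genes and in 3.65% of all 27305. Promoters of 3 fallen genes are printed around this core because these genes were apart in both lines, with the core in capitals on the strand of the gene, where IFIT3 holds it as its complement, 2 times.
IFIT3: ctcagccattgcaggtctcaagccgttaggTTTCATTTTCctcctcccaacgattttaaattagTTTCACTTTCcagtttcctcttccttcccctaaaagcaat
CXCL10: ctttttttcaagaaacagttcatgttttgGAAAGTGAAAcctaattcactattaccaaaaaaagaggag
PLSCR1: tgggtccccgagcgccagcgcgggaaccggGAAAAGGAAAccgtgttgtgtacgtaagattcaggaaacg
They are chr10:89327811-89327914 on the plus strand, chr4:76023679-76023747 on the minus strand and chr3:146544647-146544716 on the minus strand (GRCh38.p14). PLSCR1, a membrane phospholipid scramblase induced by interferon, was among the 7 shared interferon genes (mean log2 change -3.07, adjusted p = 0.00246).

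Other motifs were searched in the same way. The STAT palindrome TTCNNNGAA was in 11.7% of fallen, 4.17% of risen and 6.41% of tested promoters, and AP-1 (TGANTCA) in 9.71%, 1.39% and 4.48%. The MYC E-box CACGTG was in 6.8%, 4.17% and 10.3%. The BCL6 core TTCCTNGAA, which overlaps the STAT palindrome, was in 1 fallen promoter, that of KYNU, as TTCAAGGAA on the gene's strand, in 0 risen promoters and in 1.01% of tested promoters. A match is a string of letters and does not show binding.

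The sets also differed in level, span and strand overlap, of which the rule did not use the last 2. The level, the mean of the 4 group means, comes from the values that the rule and the test used. It is therefore not independent of how the sets were chosen. The shared risen genes had a median level of 52.3 CPM and a median span of 66.3 kb from start to end, against 16.1 CPM and 33.5 kb for the shared fallen and 30.7 CPM and 32.4 kb for all genes tested. Exonic overlap of more than 20% with the other strand was found in 2.41% of the risen, 3.91% of the fallen and 6.22% of all genes.

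The 197 calls in the mean that were not shared had the same sign in both lines in 165 cases and were at least 2-fold in each line in 32. Of them 138 were called in Daudi alone, 32 in Raji alone and 27 in neither line. The next 3 genes are examples with a change in 1 line or opposite directions. SMAD1, which carries bone morphogenetic protein signals to the nucleus, was 0.119, 0.0917, 0.0546 and 0 CPM in wild-type Raji and 24.9, 3.92, 13.5 and 30.1 CPM in knockout. In Daudi, 6.93 and 11.6 CPM in wild type stood against 4.65 and 5.3 CPM in knockout, apart in the opposite direction. BICC1, an RNA-binding protein, was at 0 in both Daudi wild-type libraries and at 8.24 and 4.05 CPM in knockout, at least 90.8-fold higher over the group totals with 3 counts as the floor, while its Raji groups overlapped. MYL1, a muscle myosin light chain, was at 21.5 and 21.2 CPM in Daudi wild type and 0 in knockout, at least 362-fold lower, and had 1 read in Raji.

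Some genes lay just outside the definition. Of the genes apart in both lines in the same direction, 258 were not called in the mean. The 3 risen shared genes nearest to the threshold had adjusted p-values of 0.04763 to 0.04997, and the next 3 outside it 0.0525 to 0.05272. For fallen genes these were 0.04525 to 0.04901 and 0.05167 to 0.0532. Ranked by the change in the line that changed less, PLCH1, TRPS1 and MURC came first with knockout higher. With knockout lower they were PLD1, FGFR1 and PIK3R6. PLD1 and FGFR1 each had 4 reads in Daudi wild type and 0 in knockout, a fall of at least 1.53-fold with 3 counts as the floor. MURC was at 0 and 0.247 CPM against 0.473 and 0.275 CPM in Daudi. PIK3R6 was 27.9, 2.29, 3.88 and 3.44 CPM in wild-type Raji, 1.29, 2.03, 0.307 and 0.641 CPM in knockout, and 1.7 and 0.346 CPM against 0.118 and 0.157 CPM in Daudi (log2 change -3.00, adjusted p = 0.0819).

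Shared risen genes were unevenly placed in the genome. Chromosome 2, which holds FBXO11, carried 19 of the 83, or 2.49% of its 764 tested genes against 0.69% of all, and 40 of the 144 risen calls. The 19 included LTBP1, REL, BCL2L11, THUMPD2 and CUL3. Over genes of at least 5 CPM, chromosome 2 lay higher in Daudi knockout, with a median log2 change of 0.33 and 78.7% of its genes above 0, against 0.03 and 53.3% in Raji. The knockout libraries stood at 0.38 and 0.34 relative to Daudi wild type. Daudi knockout also lay higher on chromosomes 21 (0.38) and 7 (0.22) and lower on chromosomes 5 (-0.22) and 14 (-0.19). On chromosome X its median was -0.35, with unlike libraries at -0.16 and -0.54. In Raji, chromosome 7 lay at -0.41 and -0.46 in knockout replicates 3 and 4 and at 0.02 and -0.04 in replicates 1 and 2. With the median of each chromosome taken out in each line, chosen after seeing the data, the shared sets were 49 risen and 132 fallen, and 5 of the 19 chromosome 2 genes stayed shared. LTBP1 stayed called and REL did not. No DNA was measured, so copy number and other chromosome-wide differences between clones cannot be told apart from the knockout.

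**Figure D5:**
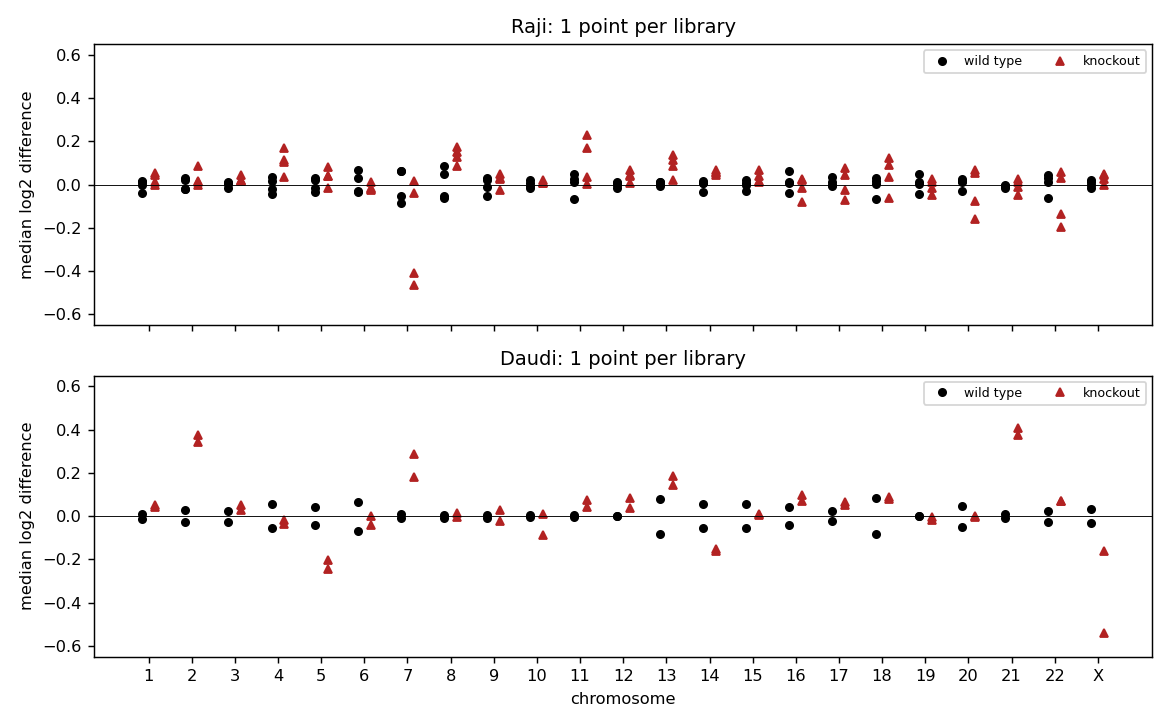
Median log2 difference from the mean of the line's own wild type (y axis) over genes of at least 5 CPM on each chromosome (x axis), with 1 point per library, wild type as black circles and knockout as red triangles. Both Daudi knockout libraries lie at 0.34 or higher on chromosomes 2 and 21, and Raji knockout replicates 3 and 4 lie at -0.41 and -0.46 on chromosome 7.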

How the data were processed

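The authors deposited raw counts per gene in 1 table of 12 libraries. The build was hg38, and the tools listed were RSEM 1.3.0 and STAR 2.5.0 with no roles given, per the submitters' processing notes. Libraries were made with a TruSeq v2 kit, per the labels' protocols, and this kit does not keep the strand. From the deposited counts, genes passing edgeR's default filter were scaled by TMM and fitted with edgeR 4.0.16 (R 4.3.3, quasi-likelihood, robust) over 4 groups, with 8 residual degrees of freedom and a common biological coefficient of variation of 26.1%. The main contrast was the mean of both line differences. A standard error is the log2 change divided by the square root of its F statistic. Benjamini-Hochberg adjustment ran over all 12027 genes, and an adjusted p under 0.05 was called. CPM are TMM-scaled, except marker sums and their ranges, which use raw totals. The floor of 3 counts covers counting error only.

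Named genes were FBXO11, BCL6, the 15 risen and 15 fallen shared genes of at least 2 CPM with the largest change in the lesser line, up to 3 leading members per list, and genes overlapping in a line or apart but not called. The members and lists were chosen with earlier results of these data known. The fit was also run on simulated counts, with less spread than these data and with equal changes planted in both lines. That run cannot show how the test performs on these libraries. DESeq2 1.42.0, limma 3.58.1, other scalings and filters, an additive model, summed pairs and leaving out each library were alternatives. Sequences came from the labels, GENCODE and RefSeq.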

Additional observations from a re-analysis of the deposited data

Results flagged for a closer look

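The change from wild type to knockout differed between the lines for 6 named genes, by the test of the difference (Raji minus Daudi log2 change, edgeR's quasi-likelihood test). The difference was -1.42 for BCL6 (adjusted p = 0.0483), 3.79 for WASF3 (adjusted p = 0.00559), 3.27 for WNK2 (adjusted p = 0.046), 8.92 for SMAD1 (adjusted p = 0.00559) and -5.34 for SPIN2B (adjusted p = 0.0322), whose Raji groups overlapped. For BICC1 it was -10.16 (adjusted p = 0.00314), a fitted value that depends on the prior count because Daudi wild type was at 0.

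Within the Raji groups of 4, 1 library stood away from the other 3 in 18 of 176 groups of named genes. A rate of about 1 in 20 would hold for 4 independent, normally distributed values. It does not apply here, as wild-type replicates 3 and 4 were nearly alike and the 176 include groups at 0 throughout. In 7 of the 18 the other 3 libraries were at 0, which sets the gap to the whole range whatever the read number, and 11 had reads in the others. Among the 11, each wild-type library apart was replicate 1 or 2, while replicates 3 and 4 were nearly alike. Raji wild-type replicate 1 was at 46.3 CPM for FCRL2 (others 24.4 to 27.7), 0.537 CPM for CCL4 (1.01 to 1.05), 284 CPM for BCL2L11 (191 to 204), 445 CPM for DDIT4 (344 to 361) and 27.9 CPM for PIK3R6 (2.29 to 3.88). Raji wild-type replicate 2 was at 14.2 CPM for ZBTB7B (20.6 to 21.6) and 9.54 CPM for BICC1 (14.2 to 14.6). Raji knockout replicate 1 was at 124 CPM for LTBP1 (106 to 109), 1.25 CPM for FGD4 (0.267 to 0.43) and 0.178 CPM for GBP4 (0.0534 to 0.0677), and knockout replicate 3 was at 0.307 CPM for KYNU (0.107 to 0.135). The last 7 were single libraries with 1 or 2 reads where the other 3 had 0, at 0.0917 CPM for CD3E and LYZ, 0.0446 CPM for PRF1, 0.0597 CPM for PDGFRB, 0.0546 CPM for ITGA2B and MYL1, and 0.107 CPM for XAF1.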

How the results depend on the processing

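The counts of calls moved with the processing while 0 named genes that were called changed sign in any fit. Of 2014 named-gene values under alternatives, those of the 66 called genes kept the call in 1262 cases and lost it in 254, and those of the 22 genes not called stayed so in 465, gained a call in 27 and changed sign uncalled in 6. In the order risen and fallen in the mean, then shared risen and shared fallen, then called in both lines, the main counts were 144, 264, 83, 128 and 19. DESeq2 gave 361, 605, 138, 213 and 90. Summing Raji wild-type replicates 3 and 4 gave 64, 146, 36, 85 and 9. Summing Raji knockout replicates 1 with 2 and 3 with 4 too gave 22, 48, 14, 33 and 1. Leaving out replicate 1 of both wild types gave 85, 111, 70, 73 and 7. Limma-voom with quality weights called 414 fallen and 67 in both lines. Without a filter 55 shared genes rose. With chromosome medians taken out, chosen after seeing the data, 87 rose, 49 of them shared. At an adjusted p under 0.01, 38 rose and 79 fell. The share of fallen calls was 64.7%, 74.5% with limma-voom or chromosome medians taken out, 59.3% without Daudi knockout replicate 2 and 56.6% without replicate 1 of both wild types.

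Leaving out 1 library gave 37 to 306 risen, 54 to 534 fallen, 26 to 112 shared risen, 35 to 211 shared fallen and 2 to 54 called in both lines. Calls whose line effects differed went from 60 to between 5 and 249. The lowest of each came without Daudi knockout replicate 2 and the highest without Daudi wild-type replicate 2, shared risen being also 112 without Raji knockout replicate 4. In those fits a Daudi arm of 1 library is assumed to vary like the other groups. The cause of these moves was not tested. No paired analysis was possible because wild-type and knockout libraries share no replicate labels. At 2 libraries a group Daudi limits the precision, and levels near 0.13 to 0.27 CPM are 3 counts.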
